A study of Mus musculus with 4 samples.

Results

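The cells described here are the Epcam-positive epithelial cells of 2 mouse mammary tumours. A barcode was a member when it had at least 500 detected genes, at most 10% mitochondrial UMIs (unique molecular identifiers, the counted RNA molecules), no UMI of the leukocyte gene Ptprc, at least 1 UMI of Epcam and at least 3 UMIs of Krt8 and Krt18 together. The rule kept 345 of 2712 barcodes of tumour 1 and 385 of 1780 barcodes of tumour 2, in all 730 of the 4492 tumour barcodes and of the 10781 barcodes of the series. The members were thus chosen by their UMIs of Epcam, Krt8, Krt18 and Ptprc, and values of these genes are given only as a description.

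The tumours grew in female mice of mixed background with loxP-flanked copies of Trp53 and of Brca1 beside a YFP reporter at Rosa26 (Trp53L/L;Brca1L/L;R26Y), after an adenovirus with Cre under the keratin 8 promoter (Ad-K8-Cre) had been injected into the milk ducts. Live DAPI- cells were sorted from each tumour mass with no YFP gate named in the labels, so a member need not be recombined. Same-genotype mice gave the premalignant libraries, of YFP+ cells about 2 weeks after injection and of YFP+ cells together with CD45+ leukocytes about 5 months after injection. The labels give the number of mice for no library and no age for the tumours, and no library without Cre was used here. The kit was the 10x Genomics 3' v2 chemistry, and the deposited values are UMI counts.

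The luminal layer of the mammary gland holds progenitor cells, which make milk proteins and defence proteins such as lipocalin when they differentiate toward alveoli, and hormone-sensing cells with steroid receptors. Epcam, a surface adhesion protein, and the simple keratins Krt8 and Krt18 are shared by luminal cells. Carcinomas often hold cells that keep luminal secretory and junction genes beside cells that express cytoskeleton and matrix genes of mesenchymal type, and cells in the division cycle.

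The members had a median of 14871 UMIs and 3222 genes in tumour 1 and of 8358 UMIs and 2386 genes in tumour 2. The libraries shared between 2 and 16 barcode sequences in pairs, and tumour 1 and tumour 2 shared 7, none of them among the members of both. A single member of tumour 2 stood apart with 137637 UMIs and 7673 genes, where the next had 33121 UMIs. Most results that rest on that member are given with and without it. Its doublet score was not among the highest of its library. Barcodes with high Scrublet doublet scores were kept and left out only as an alternative, because the automatic threshold called 0 barcodes in tumour 1 and 8 in tumour 2. The genes under deletion gave no check of it, since no unrecombined library was compared and the deleted parts were not located against the 3' tags: over the cells passing the gate Trp53 had a TMM-scaled CPM (the UMIs of a gene relative to all UMIs of the summed cells) of 54.0 at 2 weeks, 37.7 at 5 months, 10.4 in tumour 1 and 51.3 in tumour 2, and Brca1 had 4.01, 0.97, 1.11 and 1.06.

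The markers named for these cells were mostly found in them. Cdkn2a, the locus of the p16 and ARF tumour suppressor proteins, had 443 CPM (unscaled, 95% Poisson interval 426 to 461) in tumour 1 members and 569 (545 to 594) in tumour 2 members, and 310 of 345 and 312 of 385 members held a UMI of it. In Ptprc-positive, Epcam-negative cells of the same tumours, used as a rough reference level, it had 35.0 and 31.3 CPM. RNA from burst cells, doublets and the cells' own expression were not separated in this reference. Sox10, a transcription factor of neural crest and of mammary progenitors, had 76.5 CPM (69.5 to 83.9) and 80.8 (71.8 to 90.6) in members, against 2.0 and 9.2 in the Ptprc-positive cells. With every cell thinned to 2000 UMIs, 11.9% and 14.5% of members held a Sox10 UMI, against 0.3% and 1.2% of Ptprc-positive cells. Esr1 and Pgr, the steroid receptors of hormone-sensing cells, were at 3.0 CPM or below in both tumours, and the basal keratin gene Krt5 had no UMI in either. Other genes of those lists were present: 4 of 12 hormone-sensing and 3 of 14 basal genes reached 20 TMM-scaled CPM in the higher tumour. They were Gata3 (88.7 and 50.8 in tumour 1 and tumour 2), Areg (44.5 and 272), Prlr (31.1 and 22.8) and Ly6a (691 and 7.86). The basal ones were Krt14 (194 and 19.7), Krt17 (10.1 and 65.5) and Igfbp5 (1498 and 123).

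Marker genes of other cell types had UMIs among the members, at levels that differed with the cell type. Whether these UMIs came from other cells or from the members themselves was not tested. The 10 leukocyte markers found in the files, all with a UMI, summed to 413 CPM in tumour 1 members and 594 in tumour 2 members, against 20906 and 14741 in Ptprc-positive cells. The neutrophil list (6 of 6 with a UMI) summed to 283 and 2014 CPM in members, against 1337 and 20749 in Ptprc-positive cells. S100a8 alone had 146 and 1124 CPM in members, against 744 and 11895. T cell markers summed to 2 and 3 CPM, and of the fibroblast list Col1a1 had 10.1 and 1.4 CPM. The 3 genes that split the cells were in turn found at 15.2 (Csn3), 72.9 (Wfdc18) and 84.2 (Lcn2) CPM in Ptprc-positive cells of tumour 1 and at 205, 104 and 622 CPM in those of tumour 2, against 1427, 4958 and 4433 CPM in members of tumour 1 and 3233, 6045 and 5148 in members of tumour 2.

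The first question was how far the members differ in secretory genes. Csn3 (kappa-casein), Wfdc18 (a small secreted whey-acidic-type protein) and Lcn2 (lipocalin 2, which binds iron carriers of bacteria) together took from 0.004% to 7.93% of a cell's UMIs in tumour 1, with a median of 0.693%, and from 0% to 10.4% in tumour 2, with a median of 1.01%. The shares showed no gap at the cuts used below, so groups taken from them are ranges and not types. The cells of each tumour were ranked by this share and divided into 3 groups of equal size, of which the top group is called high-share and the bottom group low-share cells. The high-share group held 115 cells with a share of at least 1.27% in tumour 1 and 128 cells with at least 1.71% in tumour 2, and the nearest cells outside had 1.22% and 1.70%. The low-share group reached up to 0.352% and 0.552%, and the nearest cells outside it had 0.352% and 0.562%. Median UMIs per cell were close between high- and low-share cells, at 15790 and 16379 in tumour 1 and 7990 and 7650 in tumour 2.

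**Figure D1:**
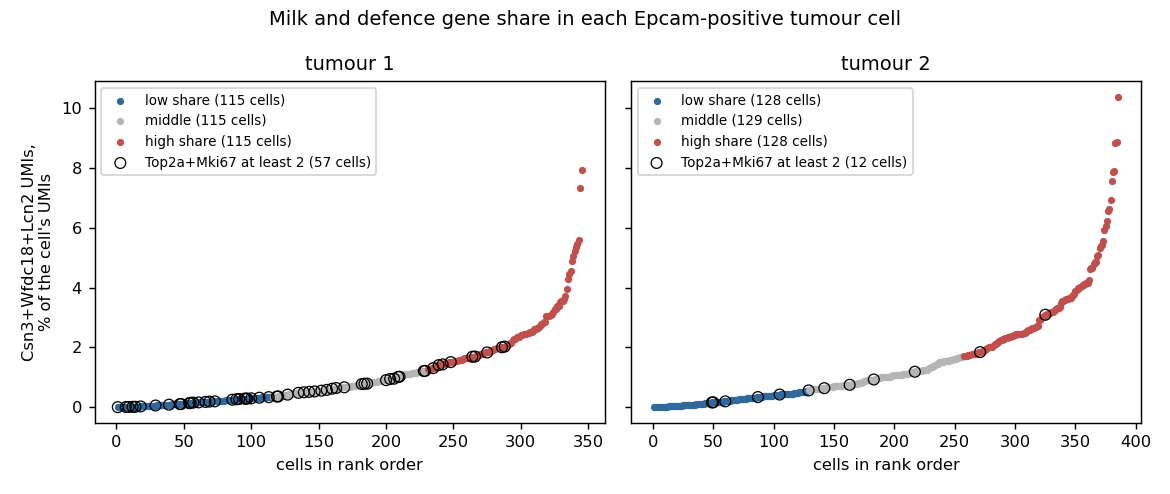
Share of each member's UMIs (y axis, %) that belongs to Csn3, Wfdc18 and Lcn2, with cells in rank order (x axis) and 1 panel per tumour. Colours mark the 3 groups and open circles mark cells with at least 2 UMIs of Top2a and Mki67, which were 57 in tumour 1 and 12 in tumour 2. The curve has no step at the cuts between groups and ends at 7.93% and 10.4%.

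High-share cells had higher levels of 8 of 12 milk and progenitor and 6 of 19 junction and keratin genes in both tumours, and lower levels of 4 of 12 mesenchymal genes. The milk and progenitor list shares its subject with the genes that split the cells. UMIs were summed over the cells of each group in each tumour. With the tumour as a block, edgeR's quasi-likelihood test compared high- with low-share cells. The spread thus comes from how 2 tumours differ in the same contrast, and edgeR moderates it across genes. At a Benjamini-Hochberg adjusted p of 0.05, 250 of 8816 genes were called (2.84%), 122 higher (1.38%) and 128 lower (1.45%) in high-share cells. The median log2 difference over all tested genes was 0.00. Scaling by library size in place of TMM gave 169 higher and 273 lower calls, and without the deepest barcode 193 were higher and 164 lower. Without the tumour as a block 0 genes were called by edgeR, with 273 at an unadjusted p under 0.05.

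**Figure D2:**
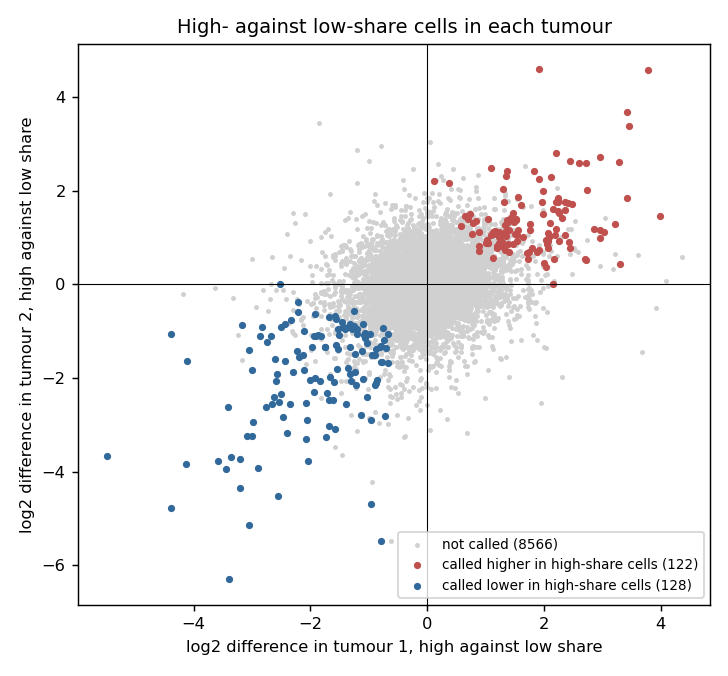
Each point is 1 of the 8816 tested genes, with the log2 difference between high- and low-share cells in tumour 1 (x axis) and in tumour 2 (y axis). The 122 genes called higher lie to the upper right and the 128 called lower to the lower left.

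Milk protein genes led the summed differences, though Lalba and Csn1s1 were found in a minority of high-share cells. Of the luminal progenitor and milk list, 12 genes beside those of the split were tested, of which 8 were higher and 0 lower, with a median log2 difference of 1.80. Csn3, Wfdc18 and Lcn2, by which the cells were split, belong to this list and share its subject, so the count is a description only. Lalba, the alpha-lactalbumin of lactose synthesis, had 46.9 CPM in high-share and 2.49 in low-share cells of tumour 1, and 60.2 and 1.55 in tumour 2. Its cells were few: 22 of 115 and 12 of 128 high-share cells held a UMI, against 1 and 2 low-share cells. A single cell held 26% of the high-share Lalba UMIs in tumour 1 and 50% in tumour 2. In both tumours the summed Lalba level was above that of low-share cells, with a log2 difference of 4.58 (SE 0.45, edgeR adjusted p = 1.19e-04, n = 2 tumours). Csn1s1, the alpha-casein gene, had 632 and 80.2 CPM in high- and low-share cells of tumour 1 and 450 and 67.3 in those of tumour 2, a log2 difference of 2.86 (SE 0.22, edgeR adjusted p = 1.32e-05). A UMI of Csn1s1 was found in 34 of 115 high-share cells of tumour 1 and 53 of 128 of tumour 2. A single cell held 33% of its high-share UMIs in tumour 1 and 15% in tumour 2. For both genes the summed level was higher in high-share cells of both tumours, which does not describe each cell.

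Regulators of the luminal progenitor followed the same direction. Elf5, a transcription factor of alveolar differentiation, had 83.8 CPM in high-share and 18.4 in low-share cells of tumour 1, and 57.5 and 10.8 in tumour 2 (log2 2.27, SE 0.29, edgeR adjusted p = 7.93e-04). Kit, a receptor kinase that marks luminal progenitors, had 56.4 and 11.5 CPM in tumour 1 and 60.2 and 17.0 in tumour 2. Trf, the iron carrier transferrin, had 3295 and 352 CPM in tumour 1 and 2482 and 1019 in tumour 2, so its difference was the larger in tumour 1. Cd14 (a receptor for bacterial lipopolysaccharide), Mfge8 (a milk fat globule protein) and Ltf (lactoferrin) were the other list members called higher besides these, and Ltf turned lower (log2 -1.02) when Wfdc18 was left out of the share. Aldh1a3 (log2 1.37, edgeR adjusted p = 0.16), Xdh (1.30), Plin2 (-0.09) and Muc1 (-0.28) did not pass.

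**Figure D3:**
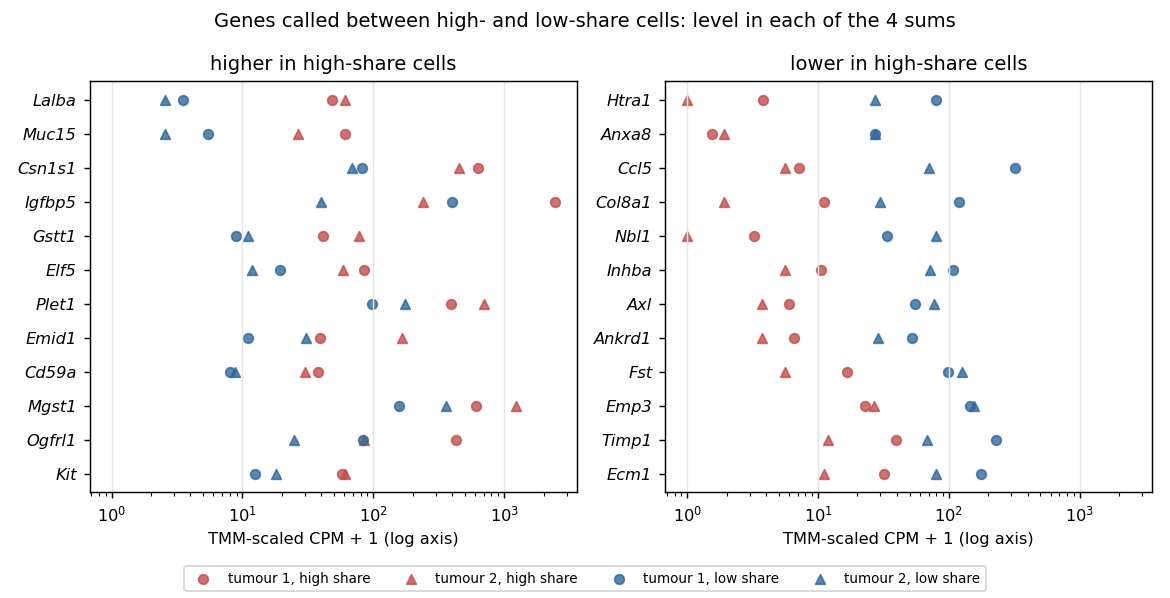
Level of the 12 genes named on each side in the 4 sums (x axis, TMM-scaled CPM plus 1, log axis); circles are tumour 1 and triangles tumour 2, red high-share and blue low-share cells. For each gene both red points lie on the same side of the blue point of their own tumour, for example Elf5 at 83.8 against 18.4 and 57.5 against 10.8 CPM.

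Other genes named on the higher side did not come from 1 list, and Igfbp5 is a member of the basal list. Igfbp5, an insulin-like growth factor binding protein of involuting and basal mammary cells, had 2433 and 399 CPM in high- and low-share cells of tumour 1 and 240 and 38.7 in those of tumour 2. The tumours differed in its level, and both had it higher in high-share cells (log2 2.62, SE 0.20, edgeR adjusted p = 1.32e-05). Plet1, a surface protein of luminal progenitors, had 388 and 97.2 CPM in tumour 1 and 702 and 175 in tumour 2 (log2 2.00). Muc15, a mucin of the milk fat membrane, had 59.2 and 4.49 CPM in tumour 1 and 25.5 and 1.55 in tumour 2. Mgst1 and Gstt1, which conjugate glutathione, had log2 differences of 1.87 and 2.62. Cd59a, which blocks complement, had a log2 difference of 2.18.

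Junction genes were higher in part. Of the 19 tested genes of the epithelial junction and keratin list, 6 were higher and 0 lower, with a median log2 of 0.88: the claudins Cldn3 (0.97), Cldn4 (1.01) and Cldn7 (1.12), the transcription factor Ehf (1.45), the protease St14 (1.21) and its inhibitor Spint1 (1.40). Cldn4 was at -0.00965 when Wfdc18 was left out of the share. Cldn7 had 347 and 159 CPM in tumour 1 and 568 and 261 in tumour 2. Epcam, which belongs to the gate and was not tested, had 373 and 302 unscaled CPM in high- and low-share cells of tumour 1 and 1894 and 1144 in those of tumour 2, while Krt8 and Krt18 lay within 1043 to 1889 CPM in all 4 sums. Among antigen presentation genes, H2-K1 (log2 0.86) and B2m (0.85) were higher and 9 of 11 tested did not pass; H2 genes resemble one another and may share reads. The interferon list was mixed, with Irf7, Ifitm3 and Ifi27l2a higher, Rsad2 and Cxcl10 lower, and 12 of 17 not called.

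Part of the mesenchymal genes were higher in low-share cells. Of 12 tested genes of the mesenchymal list, 4 were lower in high-share cells (Vim, Sparc, Zeb1, S100a4) and 0 higher, with a median log2 of -0.85. The median was -1.44 in tumour 1 and -0.21 in tumour 2. Vim, the intermediate filament vimentin, had 115 CPM in high-share and 621 in low-share cells of tumour 1, and 185 and 578 in tumour 2 (log2 -2.04, SE 0.24, edgeR adjusted p = 2.74e-04, and -1.94 without the deepest barcode). Outside this list, Lgals1, which encodes galectin 1, had 670 and 3828 CPM in tumour 1 and 316 and 1599 in tumour 2. With the deepest barcode included its log2 difference was -2.43 (edgeR adjusted p = 1.32e-05). That barcode is a low-share cell of tumour 2 with 6989 CPM of Lgals1, against 648 in the other tumour 2 members. The Lgals1 difference without it is not given here. Fn1 (fibronectin) had 77.1 and 780 CPM in tumour 1 and 102 and 125 in tumour 2, and did not pass with that barcode included (edgeR adjusted p = 0.076). Col1a1, Col1a2 and Col3a1, the collagens of fibroblasts, were at 16.0 CPM or below in all 4 sums and were not called.

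Genes of cartilage type, which the tumour cells also expressed, went both ways. Of 6 tested, Col9a1 and Col11a1 were higher and Col2a1 was lower in high-share cells. Col9a1, a chain of collagen IX, had 365 CPM in high-share and 55.3 in low-share cells of tumour 1, and 115 and 78.8 in tumour 2 (log2 1.68, SE 0.39, edgeR adjusted p = 0.034). Col2a1, the main collagen of cartilage, had 48.0 and 178 CPM in tumour 1 and 6.38 and 14.7 in tumour 2 (log2 -1.74, SE 0.30, edgeR adjusted p = 6.81e-03). In both genes the difference was the larger in tumour 1.

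Of 7 tested genes linked to Sox10 and the neural crest, Mia (a secreted protein of cartilage and melanoma cells) and Erbb3 (a receptor of the EGF receptor family) were higher and 0 lower. Erbb3 had 43.0 and 14.0 CPM in tumour 1 and 33.7 and 8.50 in tumour 2. Sox10 itself had 89.4 and 71.3 CPM in tumour 1 and 123 and 47.9 in tumour 2 and did not pass (log2 0.81, edgeR adjusted p = 0.16). Of 3 tested basal genes Igfbp5 was higher, with the values given above, and Krt14, a keratin of the basal layer, was lower. Krt14 had 93.3 and 355 CPM in tumour 1 and 19.2 and 30.1 in tumour 2. The median log2 difference of the basal list was -1.92 in tumour 1 and 1.07 in tumour 2. Of 15 p53 target genes only Phlda3 was called, lower in high-share cells (log2 -1.55), and of 21 hypoxia and glycolysis genes only the hexokinase gene Hk2, also lower (-1.35).

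The 12 genes named on the lower side included secreted, surface and intracellular proteins. Inhba, a subunit of the TGF-beta family ligand activin, had 9.49 CPM in high-share and 107 in low-share cells of tumour 1, and 4.56 and 70.4 in tumour 2 (log2 -3.63, SE 0.33, edgeR adjusted p = 6.58e-05). Fst, which encodes the activin inhibitor follistatin, had 15.6 and 97.2 CPM in tumour 1 and 4.56 and 126 in tumour 2, but 88% of its low-share UMIs in tumour 2 came from 1 cell. Timp1, an inhibitor of matrix proteases, had 38.5 and 229 CPM in tumour 1 and 10.9 and 67.3 in tumour 2 (log2 -2.58). The receptor kinase Axl had 5.03 and 54.3 CPM in tumour 1 and 2.74 and 75.8 in tumour 2. Htra1, a secreted protease, had 2.79 and 78.8 CPM in tumour 1 and was at 0 in high-share and 26.3 in low-share cells of tumour 2. Emp3, Ecm1, Col8a1, Ankrd1, Anxa8, Nbl1 and Ccl5 were the other named genes.

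These lower-side values rest on few cells in tumour 2. Between 29% and 88% of the low-share UMIs of each of the 12 genes came from 1 cell there, against at most 24% in tumour 1 except for Ccl5, a chemokine with 81% of its tumour 1 UMIs in 1 cell. The deepest barcode held 11.3% of all UMIs of low-share cells of tumour 2 and only 2 Epcam UMIs, beside 472 of Krt8 and Krt18. In it Spp1 had 31467 CPM and Lgals1 6989, against 1353 and 648 in the other tumour 2 members, and Wfdc18 had 36.3 against 6282. Without it all 12 kept their direction and their call, with log2 differences from -5.18 to -2.10, and 104 of the 128 lower calls remained. Ptprc-positive cells also held Emp3 (389 and 446 CPM), Axl (256 and 167) and Ccl5 (208 and 535). The summed leukocyte list was lower in high- than in low-share cells of tumour 1 (336 and 486 CPM) and higher in those of tumour 2 (685 and 534). Of 5 tested neutrophil genes Retnlg was called higher, with 3.35 and 2.99 CPM in tumour 1 and 173 and 36.3 in tumour 2, where 73% of its high-share UMIs came from 1 cell, and the part of leukocyte RNA in these results was not tested.

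Cells in the division cycle were counted next. Top2a (topoisomerase II alpha) and Mki67 (the Ki-67 protein) mark cycling cells, and 57 of 345 members of tumour 1 (16.5%, exact binomial 95% interval 12.8 to 20.9) and 12 of 385 of tumour 2 (3.12%, 1.62 to 5.38) held at least 2 UMIs of them. Depth differed between the tumours, and at 2000 UMIs per cell the shares were 4.06% (2.24 to 6.71) and 0.519% (0.0630 to 1.86). Among Ptprc-positive, Epcam-negative cells of the same tumours 10.4% and 2.65% held at least 2 UMIs before thinning. At 2000 UMIs per cell their shares were 2.73% (1.95 to 3.71) and 0.331% (0.0401 to 1.19). Among high-share cells the count was 9 of 115 (7.83%) in tumour 1 and 2 of 128 (1.56%) in tumour 2, and among low-share cells 26 of 115 (22.6%) and 5 of 128 (3.91%). The intervals of the groups did not overlap in tumour 1 (3.64 to 14.3 and 15.3 to 31.3) and did in tumour 2 (0.190 to 5.53 and 1.28 to 8.88), and they cover counting error only. In the gene test between the groups, 4 of 24 G2 and M phase genes were lower in high-share cells (Top2a, Birc5, Cenpa, Tpx2) and 11 without the deepest barcode, together with Ccnd1 and Cdk6 of the cyclin D and CDK list.

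The members with at least 2 UMIs of Top2a and Mki67 were then compared with the members that had 0. Replication, mitosis and recombination genes were higher in the cycling cells of both tumours, and some milk, claudin and interferon genes were lower. Of 9830 tested genes 539 were called by edgeR (5.48%), 325 higher (3.31%) and 214 lower (2.18%). Cycling cells were deeper, with median UMIs of 23493 against 13781 in tumour 1 and 14864 against 8034 in tumour 2. The median log2 difference over all genes was -0.11 with TMM and 0.04 with library size scaling, a shift of 0.153, under which 484 genes were higher and 139 lower. Without the deepest barcode, a cell with 0 UMIs of both genes, 286 were higher and 108 lower. Tumour 2 gave only 12 cycling cells.

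All 31 tested genes of the G2 and M phase list were higher, with a median log2 of 3.49 against -0.11 over all tested genes, and this list shares its subject with the genes that chose the cells. Ube2c, the ubiquitin-conjugating enzyme that helps end mitosis, had 275 CPM in cycling and 14.2 in other cells of tumour 1, and 314 and 20.1 in tumour 2 (log2 4.12, SE 0.25, edgeR adjusted p = 5.06e-33). Without the deepest barcode its log2 difference was 4.10 and its edgeR adjusted p 2.5e-09. Birc5 (survivin, a subunit of the chromosomal passenger complex) had 309 and 19.3 CPM in tumour 1 and 264 and 13.8 in tumour 2. Ccna2, the cyclin of S and G2 phase, had 84.2 and 4.15 CPM in tumour 1 and 118 and 3.30 in tumour 2. Nusap1, a spindle protein, had 50.2 and 2.08 CPM in tumour 1 and 105 and 3.30 in tumour 2, and 23 of 57 and 6 of 12 cycling cells held a UMI of it. For each of these 4 genes the summed level was higher in cycling than in other cells of both tumours.

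The promoters of Nusap1, Birc5 and Ube2c, the 3 list members with the largest difference that the RefSeq promoter table held, are shown because genes of late cell cycle are known to carry CHR and CCAAT elements there. Each runs from 250 bases before to 50 bases after the start of transcription, on the plus strand of GRCm38.p6, at chr2:119618048-119618347 (Nusap1), chr11:117848987-117849286 (Birc5) and chr2:164769679-164769978 (Ube2c). Capitals mark TTTGAA, the usual CHR sequence, and CCAAT, read on either strand.
Nusap1: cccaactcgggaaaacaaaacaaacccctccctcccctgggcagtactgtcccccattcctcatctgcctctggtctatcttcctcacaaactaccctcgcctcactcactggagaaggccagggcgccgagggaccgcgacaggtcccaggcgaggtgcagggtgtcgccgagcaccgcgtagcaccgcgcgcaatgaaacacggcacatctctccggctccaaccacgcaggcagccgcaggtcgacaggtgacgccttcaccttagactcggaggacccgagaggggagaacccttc
Birc5: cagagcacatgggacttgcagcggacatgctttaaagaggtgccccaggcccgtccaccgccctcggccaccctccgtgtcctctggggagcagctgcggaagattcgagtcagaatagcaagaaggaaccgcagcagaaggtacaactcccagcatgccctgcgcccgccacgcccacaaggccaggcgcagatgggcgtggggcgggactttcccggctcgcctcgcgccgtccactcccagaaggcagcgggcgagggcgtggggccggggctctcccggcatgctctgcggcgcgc
Ube2c: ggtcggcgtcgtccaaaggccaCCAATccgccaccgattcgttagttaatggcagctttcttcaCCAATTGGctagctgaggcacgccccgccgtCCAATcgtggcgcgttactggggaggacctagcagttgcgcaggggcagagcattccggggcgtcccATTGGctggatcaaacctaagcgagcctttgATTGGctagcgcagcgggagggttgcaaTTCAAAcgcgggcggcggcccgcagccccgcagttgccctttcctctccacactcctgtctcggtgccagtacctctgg
The Ube2c window held 7 matches, 1 of TTTGAA on the reverse strand at -29 from the start and 6 of CCAAT, of which those at -186 and -183 overlap. The windows of Nusap1 and Birc5 held no match of these letters. Of the 31 genes of the G2 and M phase list that were called higher, 26 matched the table with 27 promoters, and 70.4% of these held TTTGAA, 77.8% CCAAT and 63.0% both. Over all 32851 promoters of the table the shares were 17.9%, 37.4% and 6.95%, and over 23 promoters of 20 S phase genes called higher they were 13.0%, 65.2% and 8.70%. These are shares of windows with the letters, and binding was not measured.

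S phase genes were higher in 25 of 26 tested, with a median log2 of 2.22. Rrm2, the small subunit of the enzyme that makes deoxynucleotides, led the list with 46.4 CPM in cycling and 1.19 in other cells of tumour 1, and 123 and 1.98 in tumour 2 (log2 5.62, SE 0.47, edgeR adjusted p = 5.73e-21). Without the deepest barcode its log2 difference was 5.58 and its edgeR adjusted p 2.2e-07. The 6 genes of the MCM helicase had log2 differences between 0.99 (Mcm7) and 2.48 (Mcm3), and with every cell at 2000 UMIs Mcm7 was at -0.50. Only Slbp, which binds histone mRNA, did not pass (log2 0.71, edgeR adjusted p = 0.063).

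**Figure D4:**
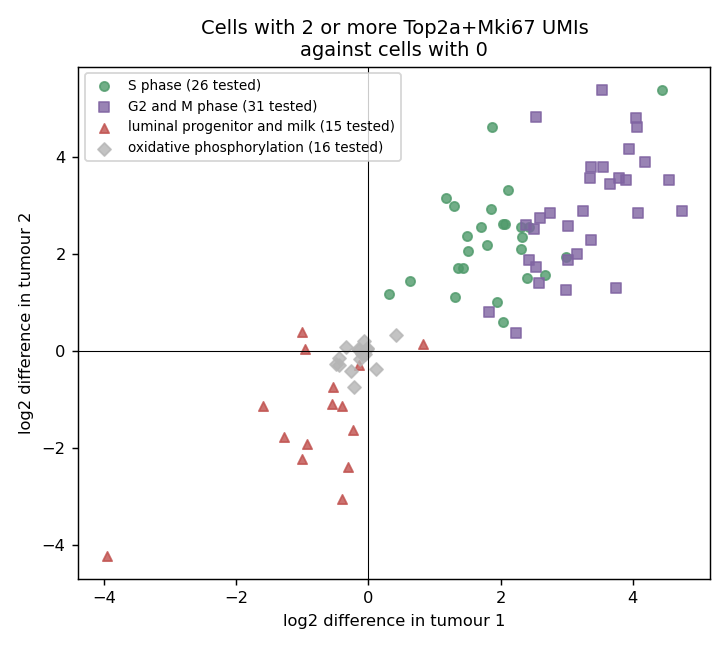
Log2 difference between cells with at least 2 and with 0 UMIs of Top2a and Mki67 in tumour 1 (x axis) and tumour 2 (y axis) for the tested genes of 4 lists. S phase and G2 and M phase genes lie above 0 in both tumours, oxidative phosphorylation genes lie near 0, and most milk genes lie below 0 in both.

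Homologous recombination, the repair pathway in which Brca1 acts, was tested as a list. Of 13 tested, 10 were higher in cycling cells and 0 lower, with a median log2 of 2.68. Brca2, a gene of the same repair pathway as Brca1, had a log2 difference of 2.68, and Bard1, the partner of Brca1, one of 4.15 at low levels of 9.27 and 0.297 CPM in tumour 1 and 13.6 and 0.989 in tumour 2. Of the cyclin D, CDK inhibitor and RB list, 7 of 16 were higher: Ccnd1 (log2 0.94), Cdk4 (0.75), E2f1 (2.57), Ccne1 (3.59), Rbl1 (1.93), Cdkn2c (2.25) and Cdkn2d (1.48), of which Cdk4 and Rbl1 were not called without the deepest barcode. Cdkn2a had 535 and 444 CPM in cycling and other cells of tumour 1 and 463 and 583 in those of tumour 2, in opposite order, and was not called (log2 -0.01, edgeR adjusted p = 0.99).

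Part of the secretory and junction genes were lower in the cycling cells. Of 15 tested milk and progenitor genes 6 were lower and 0 higher, with a median log2 of -0.81. Csn3 had 961 CPM in cycling and 1830 in other cells of tumour 1, and 963 and 3600 in tumour 2 (log2 -1.40, SE 0.26, edgeR adjusted p = 1.66e-05). Wfdc18 (-1.36), Lalba (-5.13), Mfge8 (-1.47), Trf (-0.88) and Plin2 (-0.88) were the others, of which Trf and Plin2 were not called without the deepest barcode. Of 19 junction and keratin genes 5 were lower, among them Krt19, Cldn3, Cldn4 and Cldn7, and 0 higher. Cldn4 had 92.7 and 180 CPM in tumour 1 and 105 and 1058 in tumour 2 (log2 -1.94), a larger difference in tumour 2.

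Inflammatory genes were lower in part. Of 17 interferon-response genes 5 were lower (Isg15, Irf7, Oasl2, Usp18, Ifi27l2a) and 0 higher, with a median log2 of -0.62, and Oasl2 was lost without the deepest barcode. Irf7, a transcription factor that amplifies the interferon response, had 46.4 and 129 CPM in tumour 1 and 9.09 and 43.8 in tumour 2 (log2 -1.58, edgeR adjusted p = 4.04e-05). Of 22 NF-kB, acute-phase and chemokine genes Cxcl2, Saa3, Lbp, Hp and Slpi were lower and Ccl2 higher. Hp, the haptoglobin gene, had 27.8 and 208 CPM in tumour 1 and 22.7 and 85.0 in tumour 2 (log2 -2.70, SE 0.31, edgeR adjusted p = 5.76e-13). Ccl2 went opposite ways in the tumours, with 207 and 14.8 CPM in tumour 1 and 77.2 and 168 in tumour 2, and only Saa3 and Hp of these 6 were called without the deepest barcode. Saa3 was at log2 0.22 when the members richest in leukocyte UMIs were left out, and it had 5.41 and 5.64 CPM in cycling and other cells of tumour 1 but 63.6 and 429 in those of tumour 2. The summed leukocyte list was close between the groups (411 and 429 CPM in tumour 1, 552 and 599 in tumour 2), and none of its 10 tested genes was called by edgeR. The neutrophil list summed to 219 CPM in cycling and 324 in other cells of tumour 1, but to 3470 and 1895 in tumour 2. The macrophage list summed to 829 and 774 CPM in tumour 1 and to 279 and 403 in tumour 2. None of the 5 neutrophil and 10 macrophage genes tested was called by edgeR, and the part of leukocyte RNA was not tested.

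**Figure D5:**
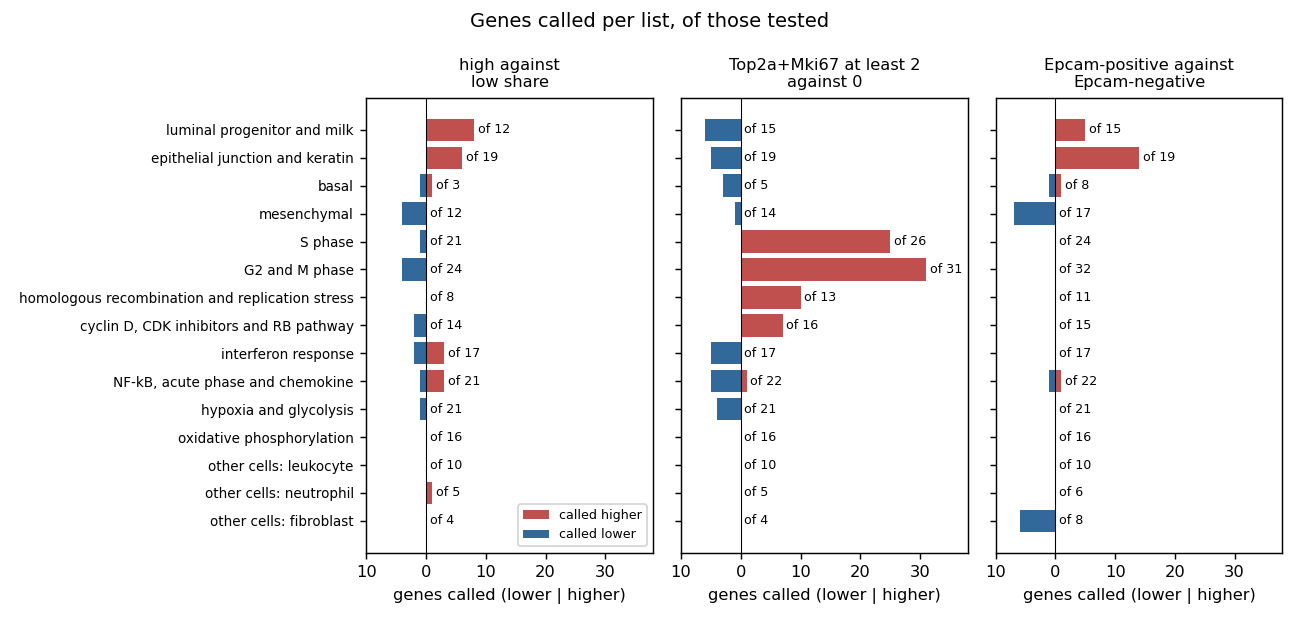
Number of genes called higher (red, to the right) and lower (blue, to the left) by edgeR in 15 lists, for high- against low-share, the cycling cells and the Epcam-positive against Epcam-negative cells; the number tested is printed at each bar. The milk list has 8 of 12 higher in the first panel, the G2 and M phase list 31 of 31 in the second and the junction list 14 of 19 in the third.

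Both tumours also held Ptprc-negative, Epcam-negative cells with at least 2 Cdkn2a UMIs, 64 in tumour 1 and 161 in tumour 2, and the members were set against them. Members had higher levels of 14 of 19 junction and keratin and 5 of 15 milk and progenitor genes, and lower levels of 7 of 17 mesenchymal genes. Of 10255 tested genes 251 were called by edgeR (2.45%), 142 higher (1.38%) and 109 lower (1.06%), with a median log2 over all genes of 0.12 that library size scaling moved to -0.04. Of the 19 tested junction and keratin genes 14 were higher and 0 lower, with a median log2 of 3.92. This list shares its subject with Epcam, Krt8 and Krt18, by which the cells were chosen, so the count is a description only. Cdh1 (E-cadherin) had 111 CPM in members and 6.76 in the other cells of tumour 1, and 89.9 and 0 in tumour 2 (edgeR adjusted p = 0.010). Cldn4 had 157 and 6.76 CPM in tumour 1 and 942 and 7.73 in tumour 2 (log2 5.95, SE 0.59, edgeR adjusted p = 3.63e-03).

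Some progenitor genes were among those called and no cell cycle gene was. Elf5 had 53.7 and 2.53 CPM in tumour 1 and 34.0 and 0 in tumour 2, and Wfdc18, Ltf, Aldh1a3 and Cd14 were also higher, in all 5 of 15 milk and progenitor genes. Csn3 had 1585 and 71.0 CPM in tumour 1 but 3241 and 1576 in tumour 2 and did not pass (edgeR adjusted p = 0.12). Sox10 went opposite ways, with 85.0 and 27.9 CPM in tumour 1 and 81.0 and 123 in tumour 2. None of the 24 S phase and 32 G2 and M phase genes tested was called by edgeR. Cdkn2a, which belongs to the rule of the Epcam-negative cells, had 443 and 829 unscaled CPM in tumour 1 and 569 and 815 in tumour 2.

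On the lower side, 7 of 17 mesenchymal and 6 of 8 fibroblast genes were lower in members. Bgn, the matrix proteoglycan biglycan, had 7.14 CPM in members and 349 in the other cells of tumour 1, and 9.96 and 177 in tumour 2 (log2 -4.88, SE 0.46, edgeR adjusted p = 3.63e-03). The chemokine gene Cxcl12 had 4.44 and 53.2 CPM in tumour 1 and 11.6 and 109 in tumour 2. Vim had 352 and 1540 CPM in tumour 1 and 410 and 883 in tumour 2 (log2 -1.62). The tumours differed in collagens: Col1a1 had 11.2 and 1364 CPM in tumour 1 and 1.38 and 3.31 in tumour 2, and the fibroblast list summed to 4720 unscaled CPM in the Epcam-negative cells of tumour 1 and to 58 in those of tumour 2. Whether fibroblasts are among the 64 cells of tumour 1 was not tested.

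The same gate gave 1081 cells of the 2 weeks and 425 of the 5 months library, with 1 library each. The spread of this fit thus comes from the 2 tumours alone, moderated across genes, and the lone libraries are assumed to vary as the tumours do. Against the 2 weeks cells 561 of 12219 genes were called by edgeR (4.59%), 354 higher (2.90%) and 207 lower (1.69%) in the tumour members. Against the 5 months cells 128 were called (1.05%), 30 higher (0.246%) and 98 lower (0.802%), and with every cell thinned to 2000 UMIs 77 were higher and 105 lower. The comparisons share the tumour cells, and the libraries differ in sort and depth. Fau, a gene of the translation machinery, had 45.9 CPM at 2 weeks and 3187 to 4133 in the other libraries, a gap in a gene that every cell uses, and the sources used here do not say whether 1 annotation served all libraries.

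Cdkn2a was higher in tumour members than in both premalignant libraries. It had 3.83 CPM at 2 weeks, 11.6 at 5 months, 474 in tumour 1 and 548 in tumour 2, a log2 difference of 7.05 (SE 0.84, edgeR adjusted p = 5.6e-04) and of 5.46 (SE 0.78, edgeR adjusted p = 2.9e-03). Serpine2, a secreted protease inhibitor, had 13.5 and 11.1 CPM in the premalignant and 770 and 485 in the tumour libraries. Hmga2, a chromatin protein of embryonic tissue, had 0.547, 5.80, 84.5 and 80.3 CPM in the same order. Vim had 5.29, 29.5, 338 and 394 CPM, and Fn1 had 1.46 and 0 before and 355 and 122 in the tumours. Ptprc-positive cells of the tumours held more of both, with 664 and 1338 CPM of Vim and 1087 and 396 of Fn1, and the part of their RNA in these levels was not tested. Sox10 had 4.01 CPM at 2 weeks and 73.9 at 5 months, 81.7 in tumour 1 and 77.9 in tumour 2, so only the 2 weeks cells stood apart (edgeR adjusted p = 5.2e-03 against 2 weeks).

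Part of the milk and progenitor genes were lower in the members than at 5 months and part were higher than at 2 weeks. Of 21 tested milk and progenitor genes 11 were lower and 0 higher than at 5 months, and 6 were higher and 0 lower than at 2 weeks. Csn3 had 606 CPM at 2 weeks, 13063 at 5 months, 1524 in tumour 1 and 3116 in tumour 2. Csn2, the beta-casein gene, had 35.7 CPM at 2 weeks and 19653 at 5 months against 10.8 and 0.266 in the tumours, below both (against 5 months log2 -11.75, SE 1.22, edgeR adjusted p = 2.6e-04). Lcn2 had 219, 3049, 4735 and 4961 CPM in the same order, the tumours above both, and was called against 2 weeks but not against 5 months. Of 12 hormone-sensing genes 8 were lower than at 2 weeks, among them Pgr with 105, 4.83, 0 and 0.266 CPM. Leukocyte (7 of 10) and neutrophil (4 of 6) markers were also higher than at 2 weeks, a library with no CD45+ cells sorted in, and their part in these differences was not tested.

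The contrast between high- and low-share cells was looked at in the 5 months library as well, where the groups held 141 cells each and 1 library allows no test. Of the 12 named higher genes, all at 20 CPM or more there, 10 were at least 2-fold higher in high-share cells, against 8.1% of the 5484 genes at that level, such as Elf5 with 195 and 70.7 CPM and Plet1 with 4150 and 1007. Of the 12 lower genes 7 reached 20 CPM and 3 were at least 2-fold lower, against 6.86% of all genes. At 2 weeks no such groups could be formed, because most cells had no UMI of the 3 genes.

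Tumour 1 and tumour 2 differed from each other in many genes, with 1 library each and no test. Of 5715 genes at 20 CPM or more in the higher tumour, 1121 (19.6%) lay at least 2-fold apart, 690 (12.1%) higher in tumour 1 and 431 (7.54%) higher in tumour 2; at 2000 UMIs per cell the counts were 775 and 959, and with library size scaling 508 and 609. Met, the receptor of hepatocyte growth factor, had 730 CPM (95% Poisson interval 707 to 753) in tumour 1 and 19.7 (15.5 to 24.6) in tumour 2. Ly6a, the surface antigen Sca-1, had 691 and 7.86 CPM, and H19, an imprinted noncoding RNA, 314 and 4.46. In tumour 2 the salivary-type Dcpp1 (341 against 3.48 CPM) and Dcpp2 (95.4 against 0.182) and the acute-phase gene Saa3 (361 against 5.12) were higher, and the Dcpp genes are near copies that may share reads.

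Lists moved apart between the tumours in the same way as single genes. Of 15 interferon genes at 20 CPM, 11 were at least 2-fold higher in tumour 1 and 0 in tumour 2, with a median log2 ratio of 1.43 against 0.09 over all genes, and Bst2, which tethers viruses to the membrane, had 462 and 147 CPM. Of 18 G2 and M phase genes 11 were higher in tumour 1 and 0 in tumour 2. Of 21 junction and keratin genes 7 were higher in tumour 2 and 1 in tumour 1, with Cldn4 at 149 and 892 CPM. Macrophage markers were higher in tumour 1 members (4 of 6) and neutrophil markers in tumour 2 members (3 of 4), as in the Ptprc-positive cells, where the neutrophil list summed to 1337 and 20749 CPM; their part in the other differences was not tested.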

How the data were processed

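The deposited values are UMI counts per gene and cell barcode, made by the authors with Cell Ranger on mm10 (GRCm38), per the submitters' processing notes. Its version and further steps are not given in the sources used here. All 4 libraries shared 27998 genes, and 694 more that only the 5 months table holds were dropped. Each library is 1 sample and the 2 tumours are the replicates. P-values therefore rest on these 2 tumours only, with 1 residual degree of freedom. Because edgeR moderates the spread of a gene with that of all genes, a very small p-value does not measure the spread between 2 tumours alone. The labels do not say how many animals each library held.

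The members, the gene lists and the tests were chosen with earlier results of these data known. Counts were summed over the cells of a group and tested with edgeR 4.0.16 in R 4.3.3 (quasi-likelihood F test, TMM scaling, low counts removed by filterByExpr, Benjamini-Hochberg adjusted p of 0.05). The genes of the gate and of each split were not tested. Log2 differences of a single tumour were taken after adding 1 CPM. Cells were filtered at 500 genes and 10% mitochondrial UMIs, with Scrublet scores from scanpy 1.11.5. For shares of cells with a UMI, cells were thinned to 2000 UMIs (seed 1), and intervals are exact Poisson or exact Clopper-Pearson at 95% and cover counting error only. Named genes were, per side, the 12 called genes at 20 CPM or more in the higher group of each tumour with the largest difference in the tumour where it was smaller (6 against the premalignant libraries, 8 between tumours), plus up to 4 per list. Other list members are named to complete a count. Promoter sequences came from RefSeq (GRCm38.p6). The fits were tested on simulated counts. Alternatives were DESeq2 1.42.0, other scaling, filters, gates and splits, thinning, and leaving out a tumour or 1 deep barcode.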

Additional observations from a re-analysis of the deposited data

Results flagged for a closer look

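In 3 genes the difference between high- and low-share cells ran one way in both tumours and the other way, at least 2-fold, in the cells of the 5 months library that passed the same gate. With 1 library at 5 months the disagreement was not tested. Emid1, an extracellular matrix protein gene, was higher in high-share cells by log2 1.83 in tumour 1 and 2.43 in tumour 2, and had 11.1 CPM in high-share and 30.3 in low-share cells at 5 months, a log2 difference of -1.37. Timp1, the inhibitor of matrix proteases, had log2 differences of -2.54 and -2.51 in the tumours and of 1.33 at 5 months, from 36.4 and 13.9 CPM. Rsad2, an antiviral interferon-response gene, had -2.74 and -1.22 in the tumours and 2.85 at 5 months, from 42.7 and 5.05 CPM. The Rsad2 counts in the tumours were low, at 5 and 49 UMIs in tumour 1 and 3 and 10 in tumour 2, and Ptprc-positive cells of the tumours held 95.4 and 152 CPM of it. A share of leukocyte RNA in these values was not tested.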

How the results depend on the processing

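The count of 250 genes called between high- and low-share cells became 35 with every cell thinned to 2000 UMIs before gate and sums (1932 genes tested), 86 with cells of equal weight and 68 with DESeq2, while leaving Wfdc18 out of the share gave 429, cells without Top2a and Mki67 UMIs 376, library size scaling 442 and no filter on low counts 533. For the 539 genes between cycling and other cells, requiring 4 UMIs gave 265, leaving out the members richest in leukocyte UMIs 347, equal weight 70 and DESeq2 177. In that order the lower calls went from 214 to 66, 102, 33 and 28, and the higher calls from 325 to 199, 245, 37 and 149. The 251 genes between Epcam-positive and Epcam-negative cells became 106 when thinned, 137 against cells without Krt8 and Krt18, 422 with library size scaling and 761 without the filter. Without the filter 1123 genes were called against 2 weeks (561 with it) and 464 against 5 months (128 with it). The 1121 genes 2-fold apart between tumours became 580 at a minimum of 50 CPM and 1734 when thinned. The shares of cycling cells fell to 4.06% and 0.519% at 2000 UMIs per cell. With no replicate block, that is without the tumour as a term, edgeR called 0 genes in each of the 3 contrasts within tumours, and 273, 382 and 640 genes had an unadjusted p under 0.05. DESeq2 with the tumour term called 68, 177 and 224.

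Directions changed in few genes. Without Wfdc18 in the share Ltf had a log2 difference of -1.02 and Cldn4 of -0.00965. With the members richest in leukocyte UMIs left out, Retnlg had -0.42 between high- and low-share cells, and Ccl2 -0.79 and Saa3 0.22 between cycling and other cells. Mcm7 had -0.50 with cells of equal weight. Ccl2 had -0.34 when 3 Epcam UMIs were required, and leaving out each tumour in turn gave Ccl2 -1.11 to 3.72. For all of these the cause was not tested, beside the smaller number of genes or cells that thinning, higher minimums and left-out cells leave by construction. Over all settings with a test, the genes named between cycling and other cells kept direction and call in 979 instances, lost the call in 337 and turned in 4. The same counts were 855, 191 and 3 between high- and low-share cells and 364, 74 and 0 between Epcam-positive and Epcam-negative cells. Equal weight, 3 Epcam UMIs and leaving out the deepest barcode were chosen after seeing the data.

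The thinned comparison of cycling cells was not run, since after thinning 0 cells of tumour 2 passed both the gate and the limit of 2 UMIs of Top2a and Mki67. Leaving out a tumour leaves no residual degree of freedom, so it gave values only. With 2 tumours and few cells per group, a gene that is not called is not shown to be unchanged.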

Other observations

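The genes that varied most from cell to cell were partly shared by the tumours. With every member thinned to 2000 UMIs and genes ranked by the ratio of variance to mean, 45 genes were among the first 100 in both tumours. The overlap to expect between unrelated rankings was not computed. Abundant genes of general use were among the 45, such as Malat1 (rank 3 in tumour 1 and 13 in tumour 2), Fth1 (6 and 10), Actb (12 and 11) and mt-Co3 (37 and 67). Secretory genes were also among the 45, such as Wfdc18 (rank 4 in tumour 1 and 8 in tumour 2) and Csn3 (8 and 6), which also set the share. Chemokine genes stood as high, with Ccl5 at ranks 2 and 28, Cxcl2 at 10 and 7 and Cxcl1 at 11 and 31. Ccl5 had 81% of its low-share UMIs in tumour 1 in 1 cell, so its rank rests on few cells. Spp1, which encodes the matrix protein osteopontin, was at 19 and 12, the immediate early gene Fos at 26 and 24, and Cd74, the chain that guides MHC class II, at 27 and 22. Leukocytes also express Ccl5, Cxcl2, Spp1 and Cd74, and the part of their RNA in these ranks was not tested.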
